A study of Sorghum bicolor with 96 samples.

Results

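A set of 13 sorghum genes is described whose transcripts were lower after a heat pulse in the early morning. After the same pulse at midday, in the afternoon or at night they fell less or not at all. A cold pulse in the early morning did not change these genes strongly. They were 13 of the 16216 genes that passed a level filter, out of 34129 genes counted in sorghum leaves (Sorghum bicolor, a cereal crop). Members were chosen from the measured values themselves. For each gene a level was taken as log2(mean CPM of a group's 3 libraries + 1), where CPM is the count scaled to 1000000 counts in a library, and the median of all kept genes in that group was subtracted. The difference D is the stressed level minus the control level. A member had D of -1.5 or lower at ZT1 in both genotype labels of the heat experiment, D above -0.7 at the 3 other times in both labels, and D between -1 and 1 at ZT1 in both labels of the cold experiment. Up to 150 genes were allowed, and 13 met every threshold. The heat responses at all times and the cold responses at ZT1 therefore describe how the genes were picked, and are given without a test.

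As background, a sudden rise in temperature makes plant cells express chaperone genes strongly while many genes used in unstressed growth are turned down. The circadian clock and the light cycle set when in the day many leaf genes are expressed, and genes that peak around dawn are a large class in plants. The response of a gene to a temperature pulse can differ with the hour at which the pulse is given, which is called gating.

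Day and night temperatures were 30 °C and 20 °C, and leaves were taken from controls or after 1 h of stress at ZT1, ZT6, ZT9 or ZT15 (zeitgeber time, hours from lights on). The heat experiment gave 42 °C to the genotypes labelled RTX430, which the submitters call sensitive to temperature, and Macia, which they call tolerant. In the cold experiment 10 °C was given to RTX430 and to SC224, the tolerant line there. Each of the 32 groups had 3 libraries, given by the labels as biological replicates, so 96 libraries were used in all. The treatment text gives the earliest time as ZT0 where the sample labels give ZT1, which was used here.

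Library totals ran from 1059841 to 11545393 counts, with a median of 3642164.5. Levels below are CPM scaled by TMM factors (trimmed mean of M values, which correct for the make-up of each library), computed within each experiment. Effects of stress and time are compared within a gene. CPM is not corrected for gene length, so a ranking of genes by level or counts is not one of abundance. Genotype labels did not match across the experiments. Of genes above 3 CPM in the median library of one label and under 0.05 CPM in that of another, 250 separated RTX430 of the cold experiment from RTX430 of the heat experiment, while 6 separated SC224 of the cold experiment from RTX430 of the heat experiment. None of the 13 genes was among those that separated any pair of labels. For pairs with a heat label the rule made this likely, since it asked for a fall at ZT1 in both heat labels. The genotype names below are the labels only. Summed CPM of genes typical of other labels stood at 414.8 and 300.0 in replicate 1 of the RTX430 controls at ZT15 in the heat experiment. In replicate 1 of the SC224 controls at ZT1 in the cold experiment these sums were 130.3 and 194.2, while no other library exceeded 8.84. The heated RTX430 library of replicate 2 at ZT1 carries ZT2 in its other labels. With that library left out 11 genes met the thresholds, all of them members. Without the SC224 library 9 genes did, all members, and without the RTX430 library at ZT15 14 genes did, the 13 members included.

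The thresholds on the other times of day removed most candidates. D was -1.5 or lower at ZT1 in both labels for 695 genes. Of these, 39 also stayed above -0.7 at every other time, and 13 of the 39 lay within the limits on cold at ZT1. A further 343 genes met the heat limit at ZT1 and the cold limits but not the limit at other times. In at least 1 label, 318 of these genes were at or under -0.7 at ZT15, 293 at ZT6 and 255 at ZT9. Members just inside the thresholds were Sobic.001G057200 with D of -0.698 at ZT6 in Macia, Sobic.001G082100 with -0.69 at ZT15 in Macia, and Sobic.007G189200 with -1.51 at ZT1 in RTX430. Just outside lay Sobic.004G256800 with -0.7 at ZT6 in RTX430, Sobic.006G167300 with -1.491 at ZT1 in RTX430, and Sobic.004G240800 with -0.717 at ZT6 in RTX430. When each of the 96 libraries was left out in turn, Sobic.004G004800, Sobic.002G210200 and Sobic.003G425500 met the thresholds every time. Sobic.007G189200 met them in 86 of the 96 runs and Sobic.002G001900 in 90.

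The identifiers could not be paired with the gene symbols of the RefSeq table used here, so names, products and sequences of the 13 genes are not given and the genes are ordered by their time-of-day profile rather than by role. No member lay next to another in the count table, in which the closest pair was 251 rows apart.

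**Figure D1:**
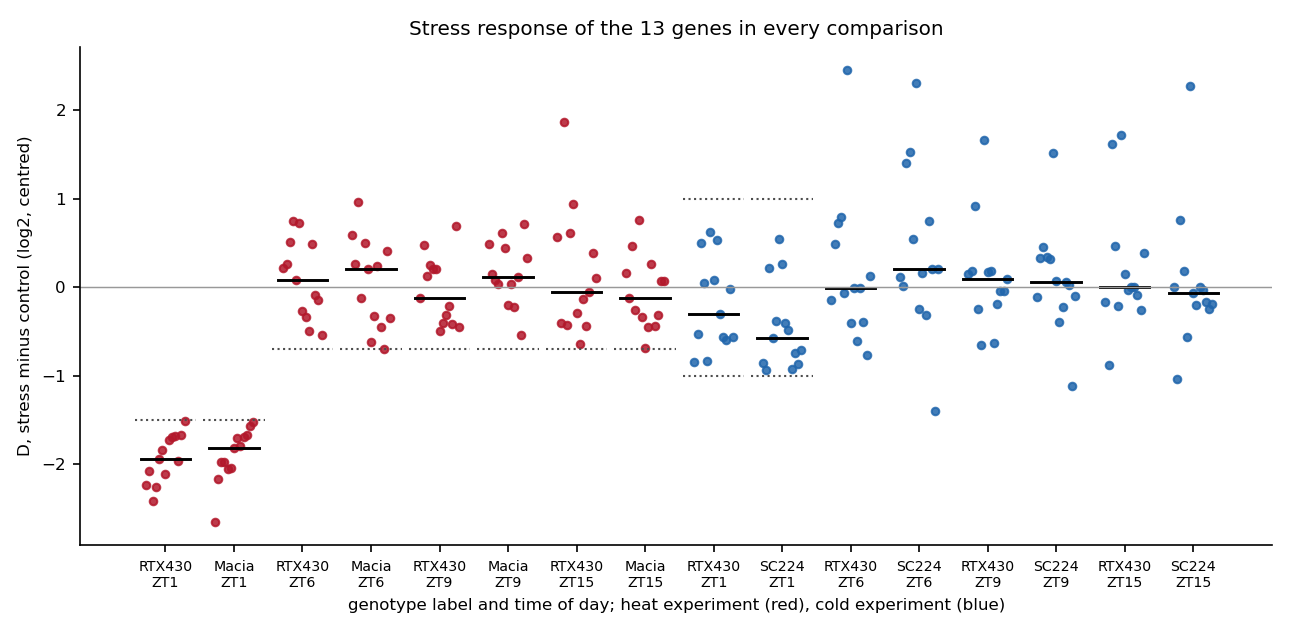
D of the 13 genes (vertical axis, log2, stressed minus control, centred on the median of all kept genes) in each of the 16 comparisons of label and time, heat in red and cold in blue. Black bars are medians over the genes and dotted lines are the thresholds of the rule. At heat ZT1 the medians were -1.94 in RTX430 and -1.81 in Macia, and at the other heat times they lay between -0.12 and 0.21.

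Heat at ZT1 left the 13 transcripts at 9.15% to 31.4% of their control mean in RTX430 and at 4.27% to 32% in Macia. The fitted log2 difference, stressed minus control, had a median of -1.99 over the 13 genes in RTX430 (range -3.06 to -1.68), where the median of all 18648 genes fitted was -0.12. Without the heated library labelled ZT2 elsewhere, the RTX430 median was -1.94 (range -2.86 to -1.47). In Macia the median was -2.17 (range -4.16 to -1.65), where all genes had a median of -0.19. Heated and control libraries did not overlap for 12 members in RTX430 and 13 in Macia, where they did not overlap, in either direction, for 46.2% and 50.1% of kept genes. Nothing is read from these shares because the rule used these contrasts. As leaves were measured in bulk, fewer cells of a type and less RNA per cell cannot be told apart.

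Sobic.004G004800 had one of the sharpest morning profiles of the set. Its control libraries in RTX430 held 581, 460 and 429 TMM-scaled CPM at ZT1, and the heated ones held 131, 120 and 32.5. For Macia the controls were at 492, 508 and 297 and the heated libraries at 158, 109 and 74.2. Every heated library was below every control in both labels, and replicate 3 was the lowest of the heated libraries in each. Away from the morning the gene was nearly silent. Its RTX430 control means were 1.16, 0.109 and 3.75 at ZT6, ZT9 and ZT15, and those of Macia were 1.25, 0.259 and 5.58. At ZT9 the control level was too low for a D of -0.7 to be reached.

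Sobic.004G101400 behaved similarly. RTX430 controls at ZT1 held 56.2, 32.3 and 73.8 TMM-scaled CPM, and heated libraries 12.9, 4.46 and 14.1. In Macia the controls held 71.5, 95.0 and 106 and the heated libraries 9.06, 13.3 and 17.97. The groups did not overlap in either label. At the other times the control means of this gene ran from 0.390 to 1.51 in RTX430, while the range in Macia was 0.104 to 1.36. Before the group medians were subtracted, a fall of 0.7 was out of reach there at 1 time in RTX430 and at 2 times in Macia.

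A second group of 4 genes was also highest in the morning in the controls of the heat experiment. Sobic.010G259100 held 294, 246 and 262 TMM-scaled CPM in RTX430 controls at ZT1 and 62.2, 69.8 and 61.02 after heat. In Macia its controls were at 261, 202 and 301 and its heated libraries at 51.4, 59.3 and 59.6. Both heated groups were tight and lay far below the controls. At ZT6 in RTX430 the controls of the same gene were at 34.8, 49.5 and 54.5 and the heated libraries at 41.5, 63.7 and 69.0, so the groups overlapped.

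Sobic.003G425500 ranged from 252 to 482 TMM-scaled CPM in the RTX430 controls at ZT1, with 394 between them, and the heated libraries held 108, 107 and 119. Macia controls held 379, 242 and 394, against 73.5, 67.3 and 103 after heat. No heated library reached a control in either label. By ZT15 the control means of this gene had dropped to 12.9 in RTX430 and 16.6 in Macia. Heated libraries of RTX430 at that time held 32.8, 33.99 and 9.62, against 10.1, 16.4 and 12.3 in controls, so 2 heated libraries were above every control and 1 below all of them. Replicate 1 of these controls is the library with high sums of other labels' genes, and its part in the result was not tested.

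Sobic.009G112600 held 160, 89.5 and 227 TMM-scaled CPM in RTX430 controls at ZT1, and 46.7, 50.5 and 52.4 after heat. In Macia the controls held 146, 211 and 117 and the heated libraries 52.4, 45.7 and 53.4. The controls of this gene were widely spread in RTX430, and the heated libraries lay close together in both labels. Sobic.003G353400 had a control mean of 25.5 ± 7.74 (SD, n = 3) at ZT1 in RTX430 and 3.92 ± 1.25 after heat. Its means in Macia were 16.8 ± 7.37 and 3.08 ± 1.22. The groups did not overlap in either label. Its RTX430 controls at ZT6 held only 3, 0 and 17 counts.

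**Figure D2:**
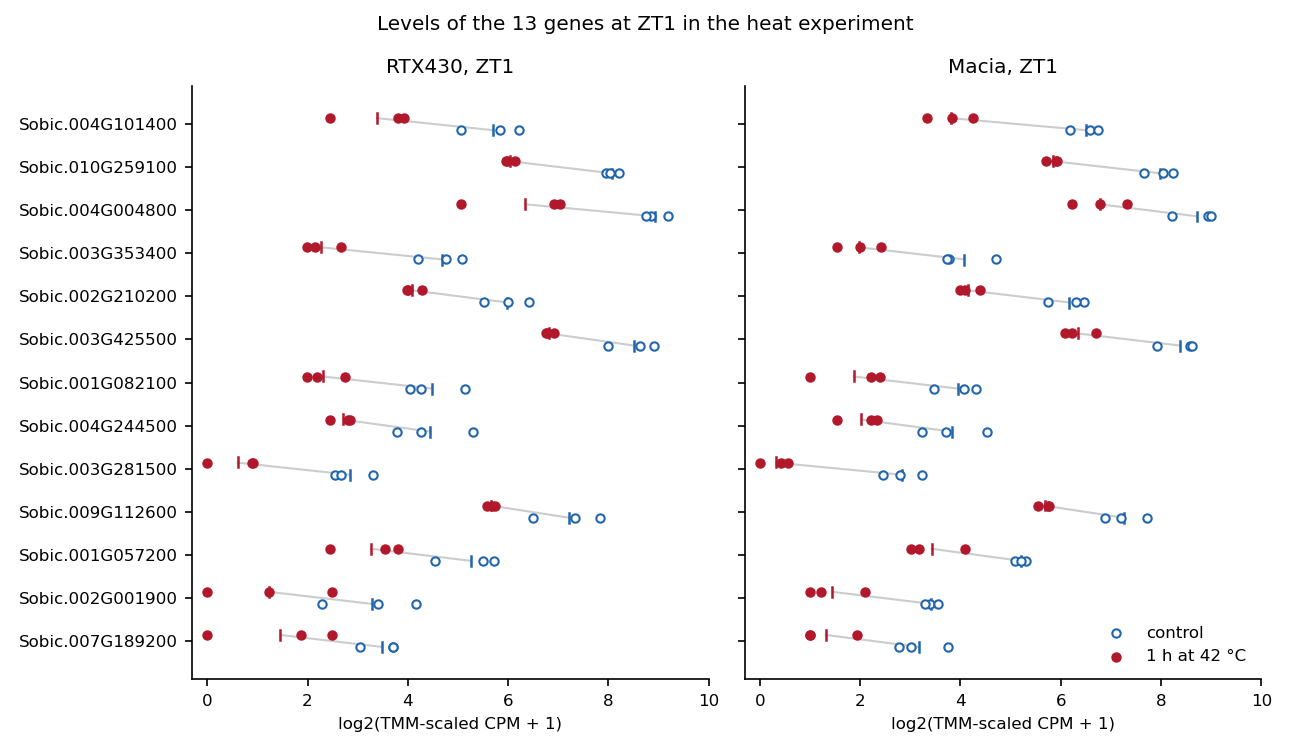
Level of each of the 13 genes at ZT1 in the heat experiment, as log2(TMM-scaled CPM + 1), in RTX430 (left) and Macia (right). Points are single libraries, open for controls and filled for 1 h at 42 °C, and short bars are means of the 3 log values. The groups overlap for Sobic.002G001900 in RTX430 and do not for the other 12 genes there or the 13 in Macia, where 46.2% and 50.1% of kept genes do not overlap in either direction.

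The remaining genes had flatter days or other peaks. Sobic.002G210200 was present at every hour, with control means between 35.1 and 64.0 TMM-scaled CPM in RTX430. At ZT1 its RTX430 controls held 45.1, 62.5 and 84.4 and its heated libraries 15.1, 14.9 and 18.4. Macia controls held 52.9, 86.8 and 78.3, against 16.1, 15 and 19.9 after heat. At ZT15 the order was the reverse in both labels. Macia controls at that time held 40.5, 55.4 and 28.6 and the heated libraries 66.7, 71.5 and 74.6, while in RTX430 the heated libraries ran from 48.4 to 61.4 above controls of 32.6 to 39.5.

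Sobic.001G082100 ran against the morning pattern, since its controls were lowest at ZT1. RTX430 controls at that time held 15.5, 34.3 and 18.3 TMM-scaled CPM, and heated libraries 3.56, 2.97 and 5.76. Macia controls held 10.1, 18.8 and 15.8, and heated libraries 1.01, 3.67 and 4.26. Heated and control libraries did not overlap in either label. Its controls were highest at ZT15, with means of 29.2 ± 4.37 in RTX430 and 27.2 ± 6.96 in Macia, and the heated means there were 22.8 ± 3.84 and 16.7 ± 1.75.

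Sobic.002G001900 peaked at ZT6 rather than in the morning. In RTX430 at ZT1 its controls held 3.88, 16.8 and 9.64 TMM-scaled CPM and its heated libraries 1.33, 0 and 4.61, so the groups overlapped. Macia controls held 9.57, 10.7 and 8.80, above the 1.01, 1.33 and 3.31 of the heated libraries. At its peak at ZT6 the RTX430 controls held 67.9, 119 and 112, against 64.5, 126 and 87.2 after heat, and the groups overlapped. At ZT15 its control means were 0.106 and 0.179 in the 2 labels, at the detection floor.

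Sobic.003G281500 was the least counted member after heat. Its heated libraries at ZT1 held 2, 0 and 3 counts in RTX430 and 0, 1 and 1 in Macia, against sums over the 3 controls of 55 and 87 counts. Scaled to library size, the control level was 9.13 times the heated one in RTX430 and 20.1 times in Macia. Exact 95% intervals of these ratios, which cover counting error only, ran from 3.69 to 29.2 and from 5.39 to 168. The fitted differences of this gene rest on those few counts.

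Sobic.004G244500, Sobic.001G057200 and Sobic.007G189200 had control means at ZT1 of 23.04 ± 13.5, 39.3 ± 15.2 and 10.5 ± 2.82 TMM-scaled CPM in RTX430. After heat their means were 5.58 ± 0.972, 9.36 ± 4.396 and 2.42 ± 2.31. In Macia the control means were 14.2 ± 7.02, 35.9 ± 2.91 and 8.45 ± 3.57, and the heated means 3.20 ± 1.14, 10.4 ± 4.91 and 1.62 ± 1.06. Heated and control libraries of the 3 genes did not overlap in either label at ZT1. At ZT6 in Macia the fitted log2 difference, given without a test, was -0.81 for Sobic.001G057200 and -0.71 for Sobic.001G082100. The median over the 13 members there was 0.15 (range -0.81 to 1.49).

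Heated libraries at ZT1 had low TMM factors, with a mean of 0.533 in RTX430, where controls had 0.930, and of 0.513 in Macia, where controls had 0.855, and their part in the result was not tested. When libraries were scaled by their totals alone, the median of all genes moved by -0.80 and -0.74 in the 2 labels and the medians of the members became -2.79 and -2.96.

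Heating at ZT1 did not bring the members to one common level relative to the rest of their day. In RTX430 the heated mean at ZT1 was above all 3 control means of ZT6, ZT9 and ZT15 for 5 members, below all of them for 6 and among them for 2. In Macia the counts were 3, 7 and 3. Sobic.004G004800 had a heated mean of 94.5 ± 53.9 TMM-scaled CPM at ZT1 in RTX430, far above its control means later in the day. By contrast Sobic.002G210200 had a heated mean of 16.1 ± 1.99, below each later control mean.

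Control leaves gave a view of these genes that the rule touched less. In the heat experiment 11 of the 13 members had their highest control mean at ZT1 in each label, against 31.1% and 33.1% of kept genes, as a description because those controls entered the rule. In the cold experiment ZT1 controls entered the rule through a limit in both directions and the level filter. There the counts were 9 of 13 in RTX430 and 10 of 13 in SC224, against 33.8% and 34.6% of kept genes. These counts too are a description, since some members were too low later in the day to fail the limit at other times.

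**Figure D3:**
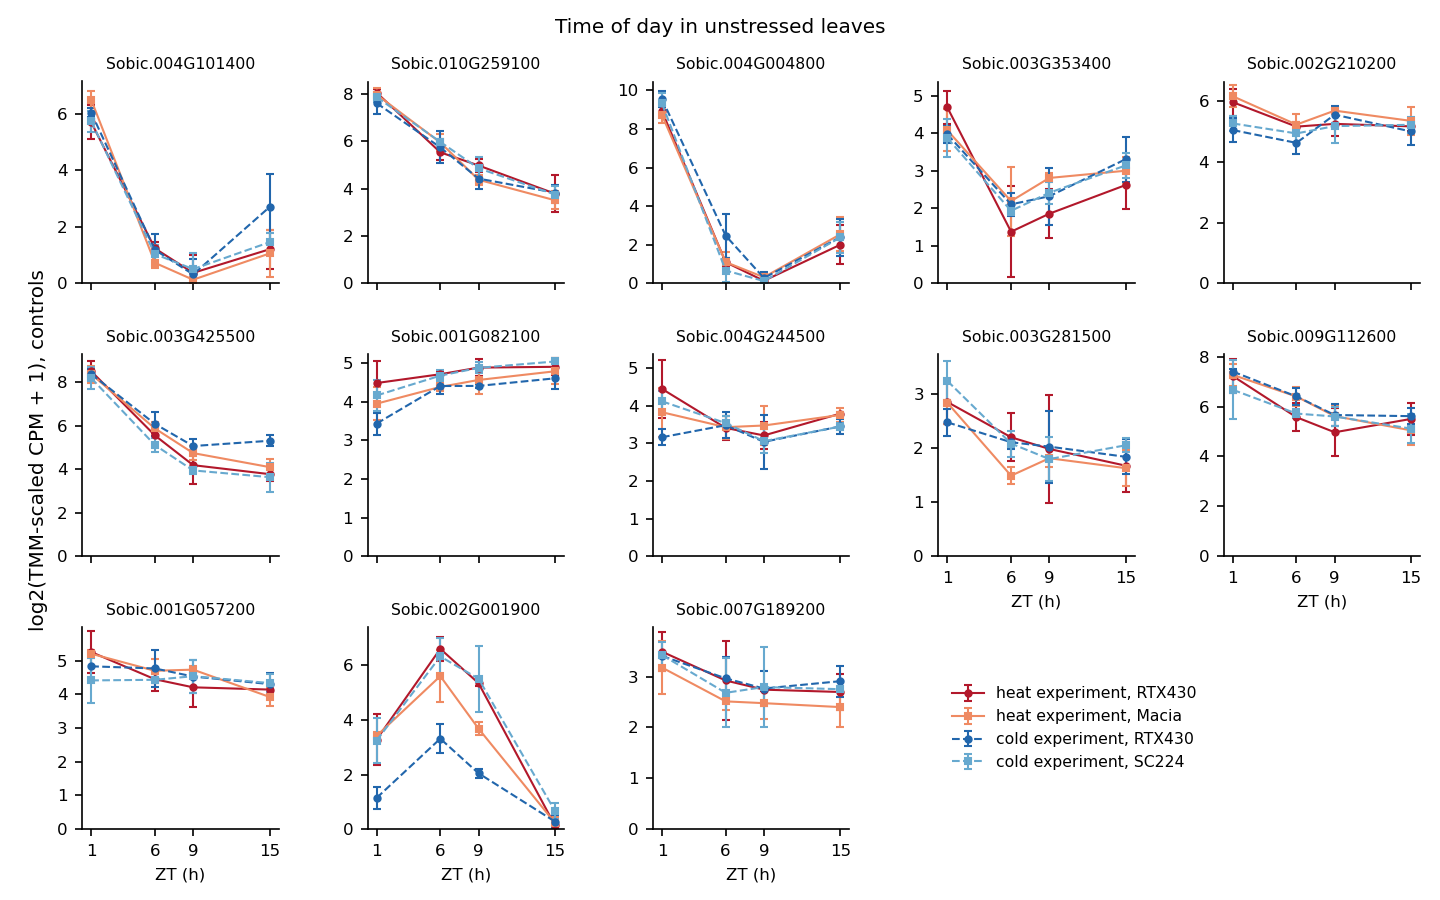
Control level of each of the 13 genes, as log2(TMM-scaled CPM + 1), against time of day in the 4 series of controls. Points are means of 3 libraries and bars are SD. Sobic.004G101400 and Sobic.004G004800 drop to near 0 by ZT9, Sobic.001G082100 is lowest at ZT1 and Sobic.002G001900 peaks at ZT6.

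Time of day was tested in the controls of the cold experiment. Jointly over the 4 times, edgeR's quasi-likelihood test with Benjamini-Hochberg adjustment over 18248 genes called 8 of 13 members in RTX430 and 10 of 13 in SC224, where it called 50.5% and 52.3% of all genes. When ZT1 was set against the mean of the 3 later times, 6 members were higher at ZT1 and 1 lower in RTX430, where 21.6% of all genes were higher and 22.6% lower. In SC224 8 were higher and 1 lower, with 22.9% and 22.5% of all genes. The 13 include 3 genes whose low level later in the day bears on how they met the rule (below). Counts and medians over all 13 are therefore a description. The median difference over the members was 0.56 in RTX430 and 1.44 in SC224 on the log2 scale, and that of all genes was -0.05 and -0.04. When libraries were scaled by their totals alone, the member median turned to -0.17 in RTX430 and was 0.65 in SC224, and that of all genes was -0.78 and -0.80. Then 4 members were called higher and 2 lower in RTX430, where 9.02% and 45.8% of all genes were. In SC224 5 were higher and 2 lower, where 10.2% and 46.4% of all genes were. Without the SC224 library that carries markers of other labels, 9 members were again called in SC224, the same 9.

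Sobic.004G004800 and Sobic.004G101400 had the largest differences, but their low level later in the day bears on how they met the rule. Before the group medians were subtracted, their controls were too low to fall by 0.7 at 2 and 3 of the 6 later heat contrasts. Without the ZT1 libraries Sobic.004G101400 had a mean of 1.94 CPM, under the level filter. The morning excess of both genes is therefore given as a description. Sobic.002G001900 was also too low at 2 of these contrasts. Without the 3 genes, 4 of 10 members were called higher at ZT1 and 1 lower in RTX430, where 21.6% and 22.6% of all genes were. In SC224 6 of 10 were higher and 1 lower, where 22.9% and 22.5% of all genes were. The medians over the 10 genes were 0.55 in RTX430 and 1.14 in SC224 on the log2 scale. Counts and medians over the 10 are a description too, since the 1 added to CPM shrinks D at low levels. Sobic.003G353400, for example, had a mean of 2.12 CPM before TMM scaling in RTX430 controls of the heat experiment at ZT6.

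Sobic.004G004800 held 1034, 671 and 616 TMM-scaled CPM in the RTX430 controls of the cold experiment at ZT1 and at most 11.2 in any RTX430 control library at later times. Its log2 difference between ZT1 and the later times was 8.66 ± 0.50 (SE) in RTX430 and 9.50 ± 0.51 in SC224. For Sobic.004G101400 the differences were 5.24 ± 0.38 and 5.76 ± 0.39. Its RTX430 controls at ZT15 held 1.60, 8.88 and 9.81, and those at ZT1 73.9, 60.5 and 61.98. At ZT9 the controls of both genes held few counts, with 0, 3 and 3 for Sobic.004G101400 in SC224 and 0, 5 and 0 in RTX430, so the fitted values of both depend on the prior count. Over 18 alternatives the RTX430 difference of Sobic.004G101400 ran from 4.48 to 6.64.

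Sobic.010G259100 was higher at ZT1 by 3.00 ± 0.26 in RTX430 (adjusted p 6.38e-12, edgeR) and by 3.03 ± 0.26 in SC224 (adjusted p 3.308e-12). Its RTX430 controls held 240, 229 and 136 TMM-scaled CPM at ZT1 and 12.8, 10.5 and 17.3 at ZT15. Sobic.003G425500 was higher at ZT1 by 2.89 ± 0.22 in RTX430 (adjusted p 4.838e-13, edgeR) and by 4.04 ± 0.23 in SC224 (adjusted p 6.163e-17). Neither gene had a later control library as high as any at ZT1.

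Smaller morning differences were found for 2 further genes in both labels. Sobic.003G353400 was higher at ZT1 by 1.46 ± 0.31 in RTX430 and 1.62 ± 0.32 in SC224, with adjusted p of 2.437e-04 and 7.195e-05 in edgeR. Sobic.009G112600 was higher by 1.49 ± 0.31 and 1.44 ± 0.31, with adjusted p of 1.439e-04 and 2.325e-04. Of its SC224 controls at ZT1, replicate 1, the library with markers of other labels, held 38.8 TMM-scaled CPM and the others 153 and 171. Without that library the SC224 difference was 1.86 ± 0.30 (adjusted p 5.637e-06, edgeR). Scaling by library totals alone lowered these differences to 0.70 and 0.85 for Sobic.003G353400, and to 0.72 and 0.65 for Sobic.009G112600. The call was then lost in RTX430 for the first, with an adjusted p of 0.09698 in a range from 4.274e-05 over 18 alternatives (edgeR or DESeq2). For Sobic.009G112600 it was lost in RTX430, with 0.09185 in a range from 2.416e-05, and in SC224, with 0.1328 in a range from 5.637e-06.

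Sobic.004G244500 and Sobic.003G281500 were called at ZT1 in SC224 and not in RTX430. The SC224 differences were 0.85 ± 0.23 (adjusted p 0.002496) and 1.51 ± 0.32 (adjusted p 1.863e-04) in edgeR. In RTX430 the values were -0.21 ± 0.24 and 0.55 ± 0.34, and the difference between labels was not tested. Under scaling by library totals both SC224 calls were lost, with values of 0.07 and 0.74. Their adjusted p were then 0.8711 and 0.1015 in edgeR, the highest of 18 alternatives, of which the lowest were 3.863e-04 and 8.944e-06.

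Sobic.001G082100 was lower at ZT1 in both labels. In RTX430 its controls held 9.43, 8.08 and 12.4 TMM-scaled CPM at ZT1 and between 17.1 and 29.4 later, with no overlap. Its difference was -1.11 ± 0.18 in RTX430 (adjusted p 2.822e-06, edgeR) and -0.72 ± 0.17 in SC224 (adjusted p 6.826e-04). Without the SC224 library with markers of other labels the value was -0.98 ± 0.19. Sobic.002G210200, Sobic.001G057200, Sobic.002G001900 and Sobic.007G189200 did not pass the threshold in either label, with differences between -0.64 and 0.71. For Sobic.002G001900 the joint test over the 4 times was past it in both labels (adjusted p 8.233e-08 and 1.178e-12, edgeR), and its peak was at ZT6.

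**Figure D4:**
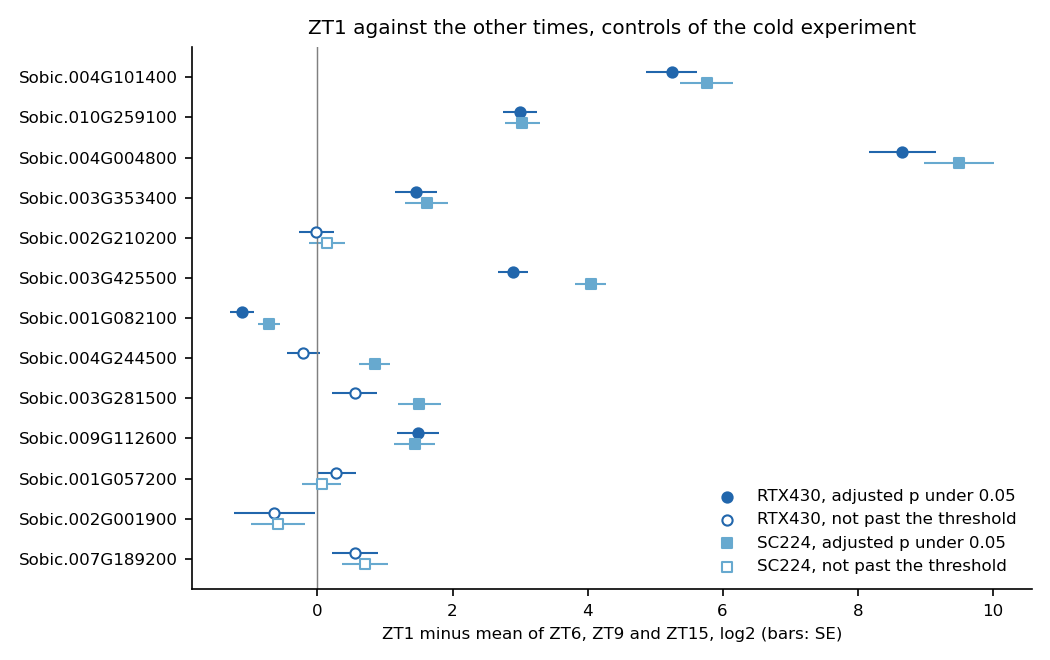
Control level at ZT1 minus the mean of ZT6, ZT9 and ZT15 in the cold experiment (log2, bars are SE) for RTX430 (circles) and SC224 (squares). Filled points passed an adjusted p of 0.05 in edgeR's test. Those of Sobic.004G004800 and Sobic.004G101400 are a description, since their low later level bears on how they met the rule. Values run from -1.11 for Sobic.001G082100 to 9.50 for Sobic.004G004800.

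The rule set no limit on the cold responses at ZT6, ZT9 and ZT15, whose libraries entered it only through the level filter. Of the 13 genes 1 was called in RTX430 at each of these times, and the SC224 counts at ZT6, ZT9 and ZT15 were 3, 1 and 1. Over all genes the share called in either direction was 3.2%, 2.13% and 1.0% in RTX430, and 2.84%, 2.71% and 1.1% in SC224. Medians over the members lay between -0.05 and 0.15 on the log2 scale, and those of all genes between -0.09 and 0.02. A test of whether the cold response differed among ZT6, ZT9 and ZT15 called 0 members in either label, where 0.252% and 0.0384% of all genes were called, with 1 member in RTX430 and 2 in SC224 at an unadjusted p under 0.05.

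Sobic.003G425500 was the member called at every one of these times, and it rose in the cold. At ZT6 its RTX430 controls held 78.0, 90.2 and 42.6 TMM-scaled CPM, and the chilled libraries 477, 322 and 400. In SC224 the controls held 34.4, 41.2 and 26.8 and the chilled libraries 148, 184 and 190. Chilled libraries were above every control in both labels. The log2 differences at ZT6 were 2.51 ± 0.32 (adjusted p 7.06e-07, edgeR) and 2.35 ± 0.32 (adjusted p 4.029e-06).

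The same gene rose later in the day as well. At ZT9 RTX430 controls held 30.2, 41.5 and 27.5 TMM-scaled CPM and chilled libraries 136, 132 and 61.98, a log2 difference of 1.72 ± 0.31 (adjusted p 5.822e-04, edgeR). For SC224 at ZT9 the controls held 12.8, 14.8 and 15.9 and the chilled libraries 44.5, 47.2 and 41.4, a difference of 1.61 ± 0.32 (adjusted p 1.262e-03, edgeR). Again no chilled library overlapped the controls. At ZT15 the differences were 1.77 ± 0.31 in RTX430 (adjusted p 6.547e-04, edgeR) and 2.32 ± 0.32 in SC224 (adjusted p 1.896e-05). Fitted to the libraries of that comparison alone, the RTX430 calls at ZT9 and ZT15 were lost, with adjusted p of 0.2121 and 0.06873 in edgeR. Over all 12 alternatives the RTX430 adjusted p ranged from 8.724e-06 to 0.2121 at ZT9 and from 1.856e-06 to 0.06873 at ZT15.

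At ZT1, where the rule held it within its limits, the chilled mean of Sobic.003G425500 was 519 ± 114 TMM-scaled CPM in RTX430 against 335 ± 51.8 in controls. In SC224 the means were 456 ± 124 and 304 ± 109. The libraries of the 2 conditions overlapped at ZT1 in SC224 and not in RTX430. The chilled mean at ZT6 in RTX430 was 399 ± 77.6, between the control and the chilled mean of the morning.

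**Figure D5:**
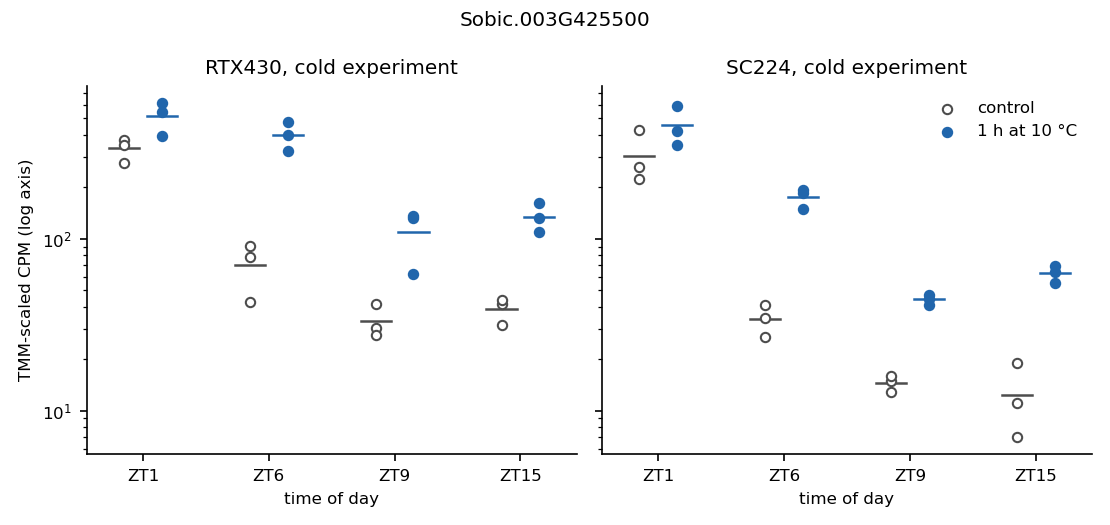
TMM-scaled CPM (log axis) of Sobic.003G425500 in the cold experiment by time of day, with RTX430 on the left and SC224 on the right. Points are single libraries, open for controls and filled for 1 h at 10 °C, and bars are means. At ZT6, ZT9 and ZT15 every chilled library is above every control.

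A further 2 members were called in SC224 at ZT6, in opposite directions. Sobic.003G353400 held 2.94, 3.04 and 2.49 TMM-scaled CPM in controls and 10.9, 10.8 and 7.78 after cold, a log2 difference of 1.78 ± 0.44 (adjusted p 0.01515, edgeR). Sobic.002G001900 held 90.6, 117 and 47.03 in controls and 26.7, 33.98 and 35.9 after cold, a difference of -1.40 ± 0.40 (adjusted p 0.04755, edgeR). Groups did not overlap for either gene. In RTX430 at ZT6 the differences were 0.91 ± 0.44 and -0.95 ± 0.46 and were not called. In edgeR's test of the difference between the labels' cold responses, 0 members were called at ZT6, ZT9 or ZT15, where at most 0.00548% of all genes were, and 1 member at ZT9 had an unadjusted p under 0.05. Both SC224 calls were unstable. That of Sobic.003G353400 was lost in 5 of 12 alternatives (adjusted p from 0.005271 to 0.08298, edgeR or DESeq2), with scaling by totals and without control replicate 2, control replicate 3, chilled replicate 1 or chilled replicate 2. That of Sobic.002G001900 was lost in 8 of 12 (adjusted p from 0.0178 to 0.3414), including each library left out in turn except control replicate 3.

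At ZT1, where the rule had limited the cold response, D had a median of -0.30 in RTX430 and -0.57 in SC224, so most members lay below 0 within the limits. Sobic.004G004800 differed from these, with chilled libraries at 1118, 1298 and 802 TMM-scaled CPM in RTX430 beside controls at 1034, 671 and 616.

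Genotype labels were compared among controls, averaged over the 4 times. In the cold experiment 3 of 13 members were called, where 20.5% of all genes were. Sobic.003G425500 was lower in SC224 by a log2 difference of -1.01 ± 0.15 (adjusted p 3.448e-06, edgeR), and Sobic.001G082100 was higher there by 0.50 ± 0.10 (adjusted p 1.693e-04). Sobic.002G001900 was higher in SC224 by 2.84 ± 0.30 (adjusted p 1.225e-09, edgeR). Its controls at ZT6 held 5.61, 12.6 and 10.0 TMM-scaled CPM in RTX430 and 90.6, 117 and 47.03 in SC224, with no overlap. These 3 calls were made also without the SC224 library that carries markers of other labels.

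In the heat experiment 0 of 13 members differed between Macia and RTX430 controls past the threshold, where 13.3% of all genes did, and 1 member had an unadjusted p under 0.05. DESeq2 also called 0. Both counts are a description, since the rule used these controls and asked for the same heat response in each label. At ZT6 the control means of Sobic.002G001900 in the heat experiment were 99.4 ± 27.5 in RTX430 and 55.4 ± 36.5 in Macia, beside 84.8 ± 35.3 in SC224 and 9.39 ± 3.52 in RTX430 of the cold experiment, each experiment scaled on its own. The low group was thus RTX430 of the cold experiment, which the genes that switch between labels also set apart from RTX430 of the heat experiment.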

How the data were processed

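The authors deposited raw counts, whole numbers per gene and library, for polyA RNA of sorghum leaves. HISAT2 and DESeq2 are named, without versions or roles, in the submitters' processing notes. Build, annotation, counting tool, strandedness and the handling of multiply mapped reads are not given in the sources used here, so values are uncertain for any member with a close paralog or an overlapping gene.

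Groups were taken from the labels. CPM, D and the members were computed with Python 3.11.15 from the deposited counts. Tests used edgeR 4.0.16 in R 4.3.3: 16 group means per experiment over 48 libraries, filterByExpr (minimum count 10, minimum total 15), TMM factors, the quasi-likelihood F-test, and Benjamini-Hochberg adjustment over all genes tested, called under 0.05. All 13 members passed that filter in both experiments. The SE of a log2 difference is its absolute value divided by the square root of the test's F, and is approximate. A group with at most 3 counts in every library was at the floor, and PCR copies were not told apart. The scripts were tested on simulated data. The replicates are biological per the labels' protocols, with no further detail on plants.

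Alternatives were RLE factors, library totals, DESeq2 1.42.0, no filter, a fit to the libraries concerned, a replicate block and leaving out libraries. The members and the lists were chosen with earlier results of these data known. The rule for named genes took the 10 members with the largest heat difference at ZT1, the 5 with the highest level, those called in the cold and the 3 at each end of the time-of-day difference. With 13 members, all are named. The lists by product name, the tissue markers, and sequences were not used, since 0 of the 13 identifiers matched the reference table.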

Additional observations from a re-analysis of the deposited data

How the results depend on the processing

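The number of genes that met the thresholds depended on how levels were computed: 28 with TMM-scaled CPM in place of centring (12 of them members) and 21 with a pseudocount of 0.5 (12 members), and the cause was not tested. A pseudocount of 2 gave 14 (8 members), a minimum mean of 1 CPM gave 16 (12 members) and of 5 CPM gave 12 (11 members). Leaving out each library gave 9 to 20. The 20 came without replicate 3 of the RTX430 cold controls at ZT1, and the 19 without heated RTX430 replicate 3 at ZT1. Alternatives for single cold and heat responses, and leaving out libraries other than those of heat at ZT1, were chosen after seeing the data.

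Fitted only to the libraries concerned, 0 members were called for cold in RTX430 at ZT9 and 0 at ZT15. With library totals in place of TMM, 2 were called for cold in SC224 at ZT15. Leaving out a library moved the calls to between 1 and 2 for cold at ZT9 in either label and at ZT6 in SC224, and to between 9 and 10 for the time of day in SC224 controls. The ZT1 difference of Sobic.002G210200 in RTX430 controls of the cold experiment, near 0, changed sign with RLE factors (0.03), DESeq2 (0.027) and the libraries concerned (0.033). With library totals, which moved the median of all genes by -0.73 in RTX430 and -0.77 in SC224, the ZT1 difference in RTX430 turned to -0.176 for Sobic.003G281500, -0.453 for Sobic.001G057200 and -0.167 for Sobic.007G189200. In SC224 it turned to -0.659 for Sobic.002G210200, -0.731 for Sobic.001G057200 and -0.075 for Sobic.007G189200. None of these was called before. With library totals 4 members were called higher and 2 lower at ZT1 in RTX430, where 9.02% and 45.8% of all genes were, and 5 and 2 in SC224, where 10.2% and 46.4% were. The heat difference at ZT1 stayed negative for all members under every alternative run. Nothing is read from this, because the rule chose the members by that difference in the same libraries. Same-numbered control and stressed libraries deviated together (r above 0.1) in 17 of 46 such pairs of libraries, with r from -0.545 to 0.651. The numbers were therefore not taken to pair the libraries. With the replicate number as a block the counts of calls were the same for every comparison, 1, 1 and 1 for cold in RTX430 and 3, 1 and 1 in SC224. Low counts limit Sobic.003G281500, Sobic.002G001900 and Sobic.007G189200 after heat at ZT1, each with a heated library at 0 counts.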
